A study of Mus musculus with 6 samples.

Results

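Nrf2 targets and detoxification genes were followed in mouse endothelial cells that carry an acetylation-mimetic Integrin-β1. They are a list of 46 genes out of the 23420 gene symbols counted, drawn up by function: the regulators of the oxidative stress response, the enzymes that make and use glutathione, thioredoxin and NADPH, and the quinone, carboxylesterase, aldehyde and carbonyl enzymes and exporters that handle reactive compounds. All 46 had a row of counts, and 38 of them were among the 11608 genes that passed the filter on low counts. The list was proposed with this comparison of the same counts already known. The values of its genes are therefore given as a description, without a test.

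The cells were eEnd2, an endothelial line from mouse embryos, stably transfected with human Integrin-β1A tagged with GFP in its extracellular part. The chimera was either wildtype (β1-WT-GFP) or carried glutamine in place of the lysine of the distal NPKY motif (β1-K794Q-GFP), and both forms were driven by a short fragment of the human β-actin promoter next to a matrix attachment region of the chicken lysozyme gene. Transfected cells were sorted for GFP, subcultured and grown without treatment to confluence in DMEM with fetal calf serum, and the endogenous mouse Itgb1 was not removed in either group, so that reads of the human chimera may be counted with it. For each group 3 cultures, lettered A to C, gave total RNA that was sequenced after depletion of ribosomal RNA, and the labels do not say whether the cultures of a group go back to separate transfections or which of the sorted GFP populations each came from. The p-values therefore measure the spread between these cultures, which may be technical.

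Nrf2, encoded by Nfe2l2, is a transcription factor that Keap1 marks for degradation in resting cells. Electrophiles and oxidants modify Keap1, Nrf2 is then stabilised and binds antioxidant response elements (AREs) together with small Maf proteins, and its targets supply glutathione, thioredoxin reductase, NADPH and quinone reductase. The aryl hydrocarbon receptor (Ahr) is another sensor, which binds xenobiotic response elements (XREs) with Arnt and induces cytochrome P450 genes. In endothelium Nrf2 and its target Hmox1 are known for protection against oxidants carried by the blood.

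Both response elements have a short core, and the RefSeq promoters (GRCm38.p6, from 250 bases before to 50 bases after each start site) were searched on both strands for TGACNNNGC, the ARE core, and GCGTG, the XRE core. A promoter was given for 36 of the 46 genes, all but Hmox1, Gclc, Gsr, Sod3, Gsta4, Gstt2, Ces1d, Ahr, Aldh2 and Abcc1. The ARE core was found in 12 of the 36 genes (33.3%, exact 95% interval 18.6% to 51.0%), against 14% of all 27025 genes with a promoter and 14.3% of 112 other genes of the same pathways. The XRE core was found in 21 of the 36 (58.3%, exact 95% interval 40.8% to 74.5%), against 35.2% of all genes and 40.2% of the 112 other genes. A match is a description of the letters and does not show that a factor binds there. The ARE core matches that lie wholly before the start site are shown with up to 26 bases on either side, because Nrf2 acts through such sites. Each sequence runs from 5′ to 3′ on the strand of the gene, and the capitals mark the core, read as its reverse complement where the core is on the opposite strand.
Nfe2l2 (chr2:75704869-75704913, minus strand): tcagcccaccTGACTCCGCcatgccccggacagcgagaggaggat
Gstm5 (chr3:107895786-107895846, plus strand): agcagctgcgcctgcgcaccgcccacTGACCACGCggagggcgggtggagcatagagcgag
Gclm (chr3:122245397-122245457, plus strand): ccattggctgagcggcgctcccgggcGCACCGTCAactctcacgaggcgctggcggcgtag
Prdx1 (chr4:116685440-116685500, plus strand): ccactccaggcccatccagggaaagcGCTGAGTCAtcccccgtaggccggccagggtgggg
Mgst1 (chr6:138140445-138140505, plus strand): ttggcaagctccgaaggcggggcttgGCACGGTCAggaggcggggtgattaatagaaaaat
Txnrd1 (chr10:82859088-82859148, plus strand): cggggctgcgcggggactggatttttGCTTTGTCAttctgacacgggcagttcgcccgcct
Abcc4 (chr14:118706220-118706270, minus strand): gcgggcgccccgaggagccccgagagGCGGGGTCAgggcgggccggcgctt
Abcc4, second start site (chr14:118676932-118676980, minus strand): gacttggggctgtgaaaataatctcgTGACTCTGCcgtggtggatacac
Sod1 (chr16:90220680-90220740, plus strand): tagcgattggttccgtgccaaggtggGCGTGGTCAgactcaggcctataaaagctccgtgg
G6pdx (chrX:74428903-74428963, minus strand): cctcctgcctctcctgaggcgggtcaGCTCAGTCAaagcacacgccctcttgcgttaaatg

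In the other 3 genes with the ARE core, Srxn1, Pgd and Me1, no match lay wholly before the start site. For the Ahr branch the XRE cores of its targets Cyp1b1 and Cyp1a1 and of its repressor Ahrr are shown, since Cyp1b1 and Ahrr differed widely between cultures.
Cyp1b1 (chr17:79715107-79715163, minus strand): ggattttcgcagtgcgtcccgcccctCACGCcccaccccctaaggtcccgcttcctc
Ahrr (chr13:74292332-74292464, minus strand): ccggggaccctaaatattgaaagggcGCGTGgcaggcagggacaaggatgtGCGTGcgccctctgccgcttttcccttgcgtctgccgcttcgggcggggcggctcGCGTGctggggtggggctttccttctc
Cyp1a1 (chr9:57697533-57697589, plus strand): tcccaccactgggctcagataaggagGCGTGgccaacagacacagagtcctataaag

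The totals of the 6 cultures ranged from 9589826 to 15287191 counts, and a count of 0 leaves room for up to 3 counts, which is 0.209 to 0.300 normalized counts depending on the culture. Normalized counts are CPM, read counts scaled to a common library size after TMM normalization, and culture values are given in the order A, B and C. Among β1-WT-GFP cultures, A and B were at least 2-fold apart in 65 genes, whereas C was 2-fold apart from A in 2701 genes and from B in 2539. Culture B of β1-K794Q-GFP was 2-fold apart from A in 2001 genes and from C in 2562, against 903 between A and C. All 12 endothelial marker genes, among them Cdh5 and Pecam1, were detected, with sums from 7251 to 13789 normalized counts. Vwf was the lowest of them, with 3 to 31 counts in a culture. The marker lists of hepatocytes and epithelium, cell types rich in detoxification enzymes, summed to less than 1 in every culture. Leukocyte markers summed to 31.0 to 103, nearly all of it from Cd68, whereas Cd3e and Lyz2 had no count. Of 10 mesenchymal markers Dcn, Lum and Twist1 had no count, and the list summed to 2.58 to 3.75 CPM in β1-K794Q-GFP cultures and to 184, 195 and 85.5 in β1-WT-GFP cultures, most of it from Prrx1. Without Prrx1 it summed to 0.787, 1.20 and 28.9 in β1-WT-GFP cultures, so that β1-WT-GFP C also stood apart in these genes, and the part of this in the values below was not tested. In bulk RNA, fewer cells of a kind and less RNA per cell cannot be told apart.

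Across the list, the highest culture was in most cases β1-WT-GFP C. It was the highest of the 6 cultures in 25 of the 38 tested genes (65.8%), against 26% of all tested genes, and it stood at least 2-fold above the mean of β1-WT-GFP A and B in 21 of the 38, against 11.4% of all tested genes. It stood at least 2-fold below that mean in Gstt2 alone, against 11% of all tested genes. The ratio of β1-WT-GFP C to the mean of A and B had a median of 1.22 on the log2 scale of CPM + 0.5 over the list and of 0.00 over all tested genes. The log2 fold change of β1-K794Q-GFP over β1-WT-GFP was negative in 29 of the 38 genes (51.6% of all tested genes), with a median of −0.48 over the list and −0.02 over all genes. With β1-WT-GFP C left out, it was negative in 16 of 39 genes (46.7% of all), with a median of 0.07 over the list and 0.04 over all genes.

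**Figure D1:**
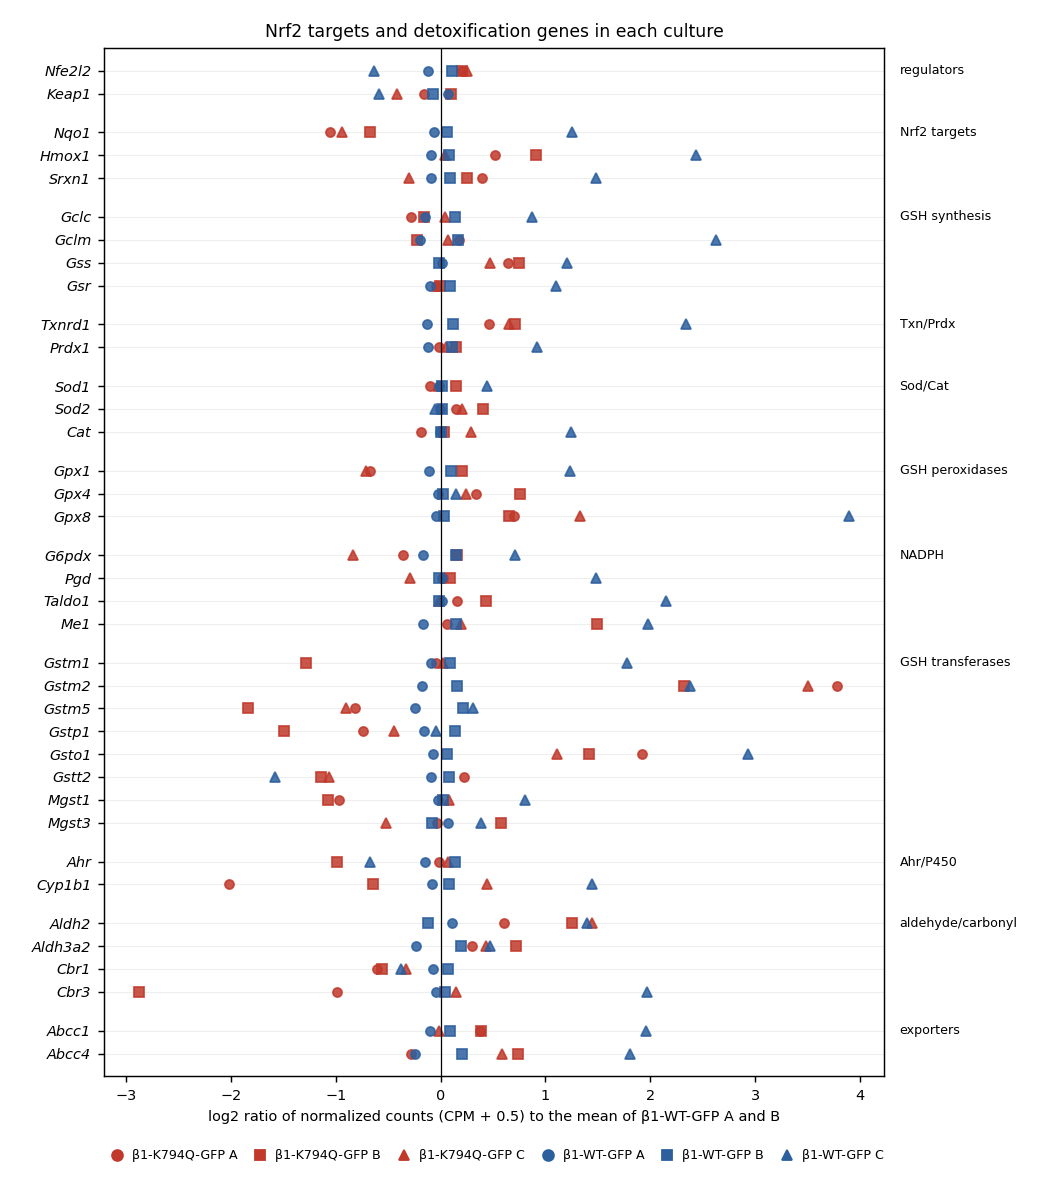
Each row is one of 37 tested genes, grouped by role, and each symbol one culture, placed by its normalized counts (CPM + 0.5) relative to the mean of β1-WT-GFP A and B on a log2 axis, with β1-WT-GFP in blue, β1-K794Q-GFP in red, and circle, square and triangle for cultures A, B and C. The blue triangle of β1-WT-GFP C lies to the right of the other 5 cultures in 25 rows, and Ces2e, with no count in β1-WT-GFP cells, is not drawn.

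With the study's thresholds, a 2-fold change together with a p of at most 0.05 before adjustment, 4 of the 38 genes were past both, against 5.19% of all tested genes. Ces2e and Gstm2 were higher in β1-K794Q-GFP cells (3.48% of all genes were called in this direction), and Nqo1 and Gstm5 were lower (1.71%). At an adjusted p of at most 0.05 in edgeR's quasi-likelihood test there were none, against 0.181% of all genes, and 5 of the 38 had an unadjusted p of at most 0.05, against 10.2%. DESeq2 called 5 of the 38 at the same thresholds, against 5.99% of all tested genes, and gave an adjusted p of at most 0.05 to 2 of them, against 4.11%. The groups did not overlap in 7 of the 38 genes, against 16.6% of all tested genes. Nfe2l2, Sod2, Gpx4 and Ces2e were higher in all β1-K794Q-GFP cultures (8.45% of all genes), and Nqo1, Gstm5 and Gstp1 were lower (8.12%). Set against β1-WT-GFP A and B only, all 3 β1-K794Q-GFP cultures were higher in 11 of the 38 genes, against 18.5% of all tested genes, and lower in 4, against 20.1%.

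Neither regulator reached a 2-fold difference between the groups. Nfe2l2 stood at 314, 315 and 324 CPM in β1-K794Q-GFP cultures and at 251, 295 and 175 in β1-WT-GFP cultures. The β1-K794Q-GFP cultures lay together above all β1-WT-GFP cultures, and β1-WT-GFP C, the culture with the most of most Nrf2 targets, had the least Nfe2l2. Its log2 fold change was 0.40 ± 0.23 (SE), and 0.23 ± 0.17 without β1-WT-GFP C. Keap1, the adaptor that hands Nrf2 to the ubiquitin ligase, was at 60.6, 72.6 and 50.5 against 71.1, 64.1 and 44.9, and the groups overlapped.

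Of the classic Nrf2 targets, Nqo1 was lower in all β1-K794Q-GFP cultures. It encodes the quinone reductase that is the standard readout of Nrf2, and it had the highest level per kb of transcript of the list in β1-WT-GFP A and B (205 CPM per kb, then Prdx1 with 107 and Hmox1 with 79.6). Nqo1 stood at 152, 199 and 166 CPM in β1-K794Q-GFP cultures (172 ± 24.1, SD, n = 3) and at 305, 331 and 758 in β1-WT-GFP cultures (465 ± 255). Every β1-K794Q-GFP culture was below every β1-WT-GFP culture, and the highest culture was β1-WT-GFP C. The log2 fold change of Nqo1 was −1.43 ± 0.40 (SE). Without β1-WT-GFP C it was −0.87 ± 0.18, under the 2-fold threshold, and in the other 5 fits with a culture left out the gene stayed past both thresholds.

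Hmox1 and Srxn1 did not share this order. Hmox1, heme oxygenase, which breaks down heme into biliverdin, iron and carbon monoxide, was at 200, 262 and 143 in β1-K794Q-GFP cultures and at 131, 148 and 757 in β1-WT-GFP cultures. β1-WT-GFP C was 5.42-fold above the mean of A and B on the scale of CPM + 0.5, and the β1-K794Q-GFP cultures lay at or above the level of A and B. The log2 fold change of Hmox1 was −0.77 ± 0.72 with all cultures and 0.55 ± 0.29 without β1-WT-GFP C. Srxn1, sulfiredoxin, which restores overoxidised peroxiredoxins, ranged from 79.4 to 129 in β1-K794Q-GFP cultures and was at 91.9, 104 and 276 in β1-WT-GFP cultures.

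**Figure D2:**
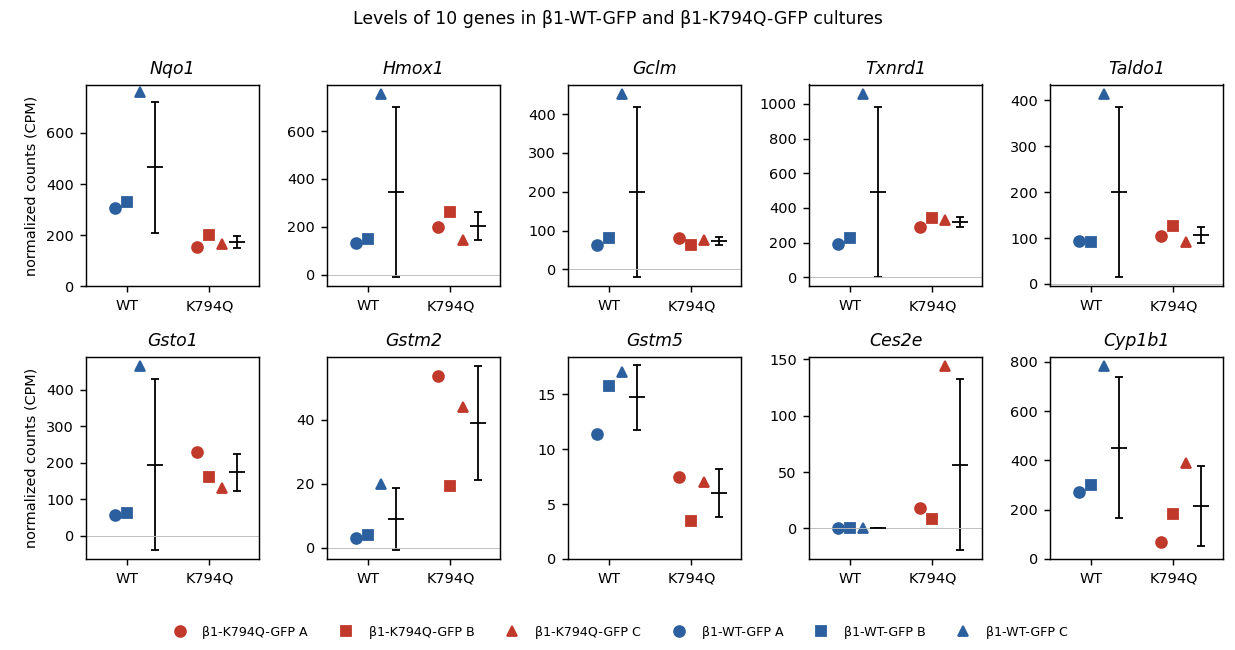
Normalized counts (CPM, linear axes) of 10 genes, one panel a gene, in the 3 β1-WT-GFP cultures (blue) and the 3 β1-K794Q-GFP cultures (red), with circle, square and triangle for cultures A, B and C and the mean ± SD beside them. In Hmox1, Gclm, Txnrd1, Taldo1 and Gsto1 β1-WT-GFP C stands far above the other 5 cultures, in Nqo1 and Gstm5 all red points lie below all blue points, and Ces2e has counts only in the red group.

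The genes of glutathione synthesis and recycling were all highest in β1-WT-GFP C. Gclm, the modifier subunit of glutamate-cysteine ligase, which carries out the rate-limiting step of glutathione synthesis, was at 82.1, 62.1 and 76.4 in β1-K794Q-GFP cultures and at 63.6, 81.8 and 452 in β1-WT-GFP cultures. Its log2 fold change was −1.44 ± 0.76, and 0.03 ± 0.20 without β1-WT-GFP C. The catalytic subunit Gclc ranged from 92.1 to 116 in β1-K794Q-GFP cultures and was at 101, 123 and 206 in β1-WT-GFP cultures, so that β1-WT-GFP C exceeded A and B by 1.83-fold in the catalytic and by 6.19-fold in the modifier subunit. Gsr, glutathione reductase, which restores reduced glutathione with NADPH, was at 95.3, 98.2 and 96 against 91.9, 105 and 211. Gss, glutathione synthetase, was low throughout, at 12.4, 13.4 and 11.0 against 7.87, 7.70 and 18.7. All β1-K794Q-GFP cultures of Gss were above β1-WT-GFP A and B, and its log2 fold change was 0.10 ± 0.40 with all cultures and 0.67 ± 0.22 without β1-WT-GFP C.

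Thioredoxin reductase was also highest in β1-WT-GFP C, with the β1-K794Q-GFP cultures next. Txnrd1, which reduces thioredoxin with NADPH, was at 288, 341 and 328 in β1-K794Q-GFP cultures and at 190, 226 and 1059 in β1-WT-GFP cultures. Without C the groups would not have overlapped, with a log2 fold change of −0.62 ± 0.68 that became 0.63 ± 0.18 without C. Txnrd1 lies on chromosome 10, where 25 neighbouring genes had a median log2 difference of 0.46 between the groups, and with this regional level in the fit its log2 fold change was −1.19. Prdx1, a peroxiredoxin that removes hydrogen peroxide, ranged from 320 to 359 in β1-K794Q-GFP cultures and was at 299, 350 and 615 in β1-WT-GFP cultures.

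The superoxide dismutases varied little between cultures. Sod1, the cytosolic enzyme, ranged from 112 to 134 in β1-K794Q-GFP cultures and from 119 to 164 in β1-WT-GFP cultures. Sod2, the mitochondrial enzyme, was at 56.2, 67.0 and 58.5 against 50.3, 51.0 and 48.8, and the groups did not overlap at a log2 fold change of 0.28 ± 0.15. Of the stretches of 50 bases in the Sod2 transcripts 21.0% also occur in transcripts of other genes, so that its value is less certain. Cat, catalase, was at 50.4, 58.7 and 70.4 against 56.9, 57.7 and 136, and Sod3, the extracellular enzyme, had no count in any culture.

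Among the glutathione peroxidases Gpx8 had the widest range. This enzyme of the endoplasmic reticulum was at 8.38, 8.09 and 13.2 in β1-K794Q-GFP cultures and at 4.81, 5.10 and 80.5 in β1-WT-GFP cultures. β1-WT-GFP C exceeded A and B by 14.8-fold on the scale of CPM + 0.5, more than in any other gene of the list. The log2 fold change of Gpx8 was −1.61 ± 1.13 with all cultures, and without β1-WT-GFP C it was 1.01 ± 0.33 and the gene was past both thresholds in the other direction. Gpx4, which reduces lipid peroxides in membranes, was at 130, 174 and 122 against 101, 105 and 114, with no overlap. Its neighbours on chromosome 10 were raised by a median of 0.41 on the log2 scale, the fit with the regional level gave −0.01 in place of 0.41 ± 0.19, and 34.7% of its 50-base stretches also occur in a pseudogene. Gpx1, the cytosolic peroxidase, ranged from 22.1 to 42.3 in β1-K794Q-GFP cultures and was at 33.9, 39.3 and 86.6 in β1-WT-GFP cultures. Gpx7 had no count in any culture, and Gpx3, the plasma form, had at most 5 counts in a culture.

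The enzymes that supply NADPH had their highest value in β1-WT-GFP C in all 4 genes. Taldo1, transaldolase of the pentose phosphate pathway, was at 104, 126 and 92.1 in β1-K794Q-GFP cultures and at 93.8, 92.3 and 414 in β1-WT-GFP cultures. Pgd, phosphogluconate dehydrogenase, was at 176, 184 and 141 against 174, 172 and 484. Apart from β1-WT-GFP C, the cultures of these pentose phosphate genes were close to each other in both groups. G6pdx, the first enzyme of the pathway, was at 80.7, 116 and 57.8 against 91.9, 115 and 169, a smaller excess of β1-WT-GFP C (1.63-fold). Me1, malic enzyme, was at 37.5, 102 and 41.4 against 32.0, 40.1 and 144, and it was the one gene of the list in which β1-K794Q-GFP B stood at least 2-fold above A and C, against 6.93% of all tested genes. Of its 50-base stretches 22.9% also occur in other transcripts, mostly of one predicted gene.

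The glutathione transferases, which couple glutathione to electrophiles, went in different directions within one gene cluster. Gstm1, Gstm2 and Gstm5 lie between 107895821 and 108017973 on chromosome 3 (GRCm38), and Gstm2 was higher in β1-K794Q-GFP cells whereas Gstm5 was lower. Gstm2 was at 53.6, 19.2 and 44.1 in β1-K794Q-GFP cultures and at 2.97, 3.90 and 20.1 in β1-WT-GFP cultures. β1-K794Q-GFP A and C were above all β1-WT-GFP cultures, and β1-K794Q-GFP B and β1-WT-GFP C lay side by side. The log2 fold change of Gstm2 was 2.11 ± 0.82, and 3.52 ± 0.54 without β1-WT-GFP C. The call was lost when any one of β1-K794Q-GFP A or C or β1-WT-GFP A or B was left out.

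Gstm5 was at 7.51, 3.45 and 7.05 in β1-K794Q-GFP cultures (6.01 ± 2.22, SD, n = 3) and at 11.4, 15.8 and 17.0 in β1-WT-GFP cultures (14.7 ± 2.96). The groups did not overlap, β1-WT-GFP C was close to A and B, and the log2 fold change was −1.29 ± 0.37 and stayed past both thresholds in all 6 fits with a culture left out. Its chromosomal neighbours were lower in β1-K794Q-GFP cells by a median of 0.34 on the log2 scale, and with the regional level in the fit its log2 fold change was −0.99, under the 2-fold threshold. Gstm1 was at 26.9, 11.2 and 28.3 against 26, 29.6 and 96.4, and 18.9% of its 50-base stretches also occur in related transcripts.

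Gstp1 and Gsto1 showed opposite orders against β1-WT-GFP A and B. Gstp1, the pi class enzyme, was at 24.4, 14.2 and 30.0 in β1-K794Q-GFP cultures and at 36.7, 45.2 and 39.8 in β1-WT-GFP cultures, with no overlap and no excess of β1-WT-GFP C. Its log2 fold change was −0.83 ± 0.30, and −0.83 ± 0.34 without β1-WT-GFP C. Reads of Gstp1 can be shared with Gstp2, since 33.7% of its 50-base stretches occur in other transcripts. Gsto1, an omega class enzyme that acts as a thioltransferase, was at 230, 162 and 131 in β1-K794Q-GFP cultures and at 57.6, 63.3 and 464 in β1-WT-GFP cultures. The 3 β1-K794Q-GFP cultures stood between β1-WT-GFP A and B on one side and C on the other, and the log2 fold change moved from −0.16 ± 0.84 to 1.54 ± 0.29 without C, where it was past both thresholds.

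The remaining transferases were not past both thresholds. Mgst1, a membrane-bound microsomal enzyme, was at 22.3, 20.8 and 47.0 against 43.5, 45.2 and 77.7, and only β1-K794Q-GFP C reached the level of β1-WT-GFP A and B. Mgst3 ranged from 8.69 to 19.1 in β1-K794Q-GFP cultures and from 12 to 16.7 in β1-WT-GFP cultures. Gstt2, a theta class enzyme on chromosome 10, was at 5.10, 1.68 and 1.81 against 4.02, 4.60 and 1.11, the one gene of the list with β1-WT-GFP C at least 2-fold below A and B. Gsta4 had no count, and Gstt1 had 10 counts in the β1-K794Q-GFP and 2 in the β1-WT-GFP cultures, a ratio of 5.57 with a counting interval from 1.19 to 52.3.

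Of the 3 carboxylesterases of the list, enzymes that hydrolyse esters of drugs and lipids, Ces2e and Ces2g were detected only in β1-K794Q-GFP cells. Ces2e was at 18.1, 7.99 and 144 normalized counts in these cultures and had 0 counts in each β1-WT-GFP culture, at least 189-fold higher against the floor of 3 counts in 1 culture, and at least 43.5-fold higher without β1-K794Q-GFP C. Ces2g (104961718 to 104969537 on chromosome 8, GRCm38) lies in the same gene cluster as Ces2e (104926260 to 104934672), and it had 13, 0 and 62 counts in β1-K794Q-GFP cultures and 0 in β1-WT-GFP cultures, at least 7.32-fold higher, and at least 2.09-fold higher without β1-K794Q-GFP C. Both genes had their highest value in β1-K794Q-GFP C and their lowest in B. Of the 50-base stretches of Ces2e and Ces2g 3.30% and 3.07% occur in other transcripts. Ces1d had no count in any culture.

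In the Ahr branch the receptor itself did not separate the groups. Ahr was at 124, 63.3 and 132 in β1-K794Q-GFP cultures and at 113, 138 and 78.3 in β1-WT-GFP cultures. Cyp1b1, a P450 enzyme and Ahr target expressed in endothelium, was at 70.3, 183 and 389 against 271, 302 and 782. In order of level each β1-K794Q-GFP culture was more than 2-fold above the one before, the highest of them was above β1-WT-GFP A and B, and the log2 fold change was −1.08 ± 0.70. It was −1.83 without β1-K794Q-GFP C, where Cyp1b1 was past both thresholds, −0.66 without β1-K794Q-GFP A and −0.41 without β1-WT-GFP C. Cyp1a1, the most inducible target of Ahr, had 1 count in β1-WT-GFP C and none in the other 5 cultures.

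Aldehyde and carbonyl enzymes were split. Aldh2, the mitochondrial dehydrogenase that oxidises acetaldehyde and lipid aldehydes, was at 48.9, 76.7 and 87.5 in β1-K794Q-GFP cultures and at 34.6, 29.3 and 84.8 in β1-WT-GFP cultures. All β1-K794Q-GFP cultures were above β1-WT-GFP A and B, and without β1-WT-GFP C the log2 fold change of 0.52 ± 0.46 became 1.17 ± 0.29, past both thresholds. Aldh3a2, the fatty aldehyde dehydrogenase, ranged from 51.1 to 68.8 against 35.3 to 57.7. Cbr1, a carbonyl reductase, was at 18.5, 19.1 and 22.5 against 26.9, 29.9 and 21.8. Cbr3, a related gene on the same chromosome, was at 6.45, 1.38 and 14.8 against 12.9, 13.7 and 53.5, with β1-K794Q-GFP B lowest and β1-WT-GFP C highest. The log2 fold change of Cbr3 was −1.82 ± 0.93, −2.76 and past both thresholds without β1-K794Q-GFP C, and −0.80 without β1-WT-GFP C.

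Both exporters of glutathione conjugates followed the pattern of the glutathione genes. Abcc1 (Mrp1) was at 152, 152 and 116 in β1-K794Q-GFP cultures and at 109, 124 and 455 in β1-WT-GFP cultures. Abcc4 (Mrp4), which also exports cyclic nucleotides, was at 20.4, 41.7 and 37.5 against 20.9, 28.8 and 88.3. In both, β1-WT-GFP C was the highest culture and the other 5 cultures overlapped.

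**Figure D3:**
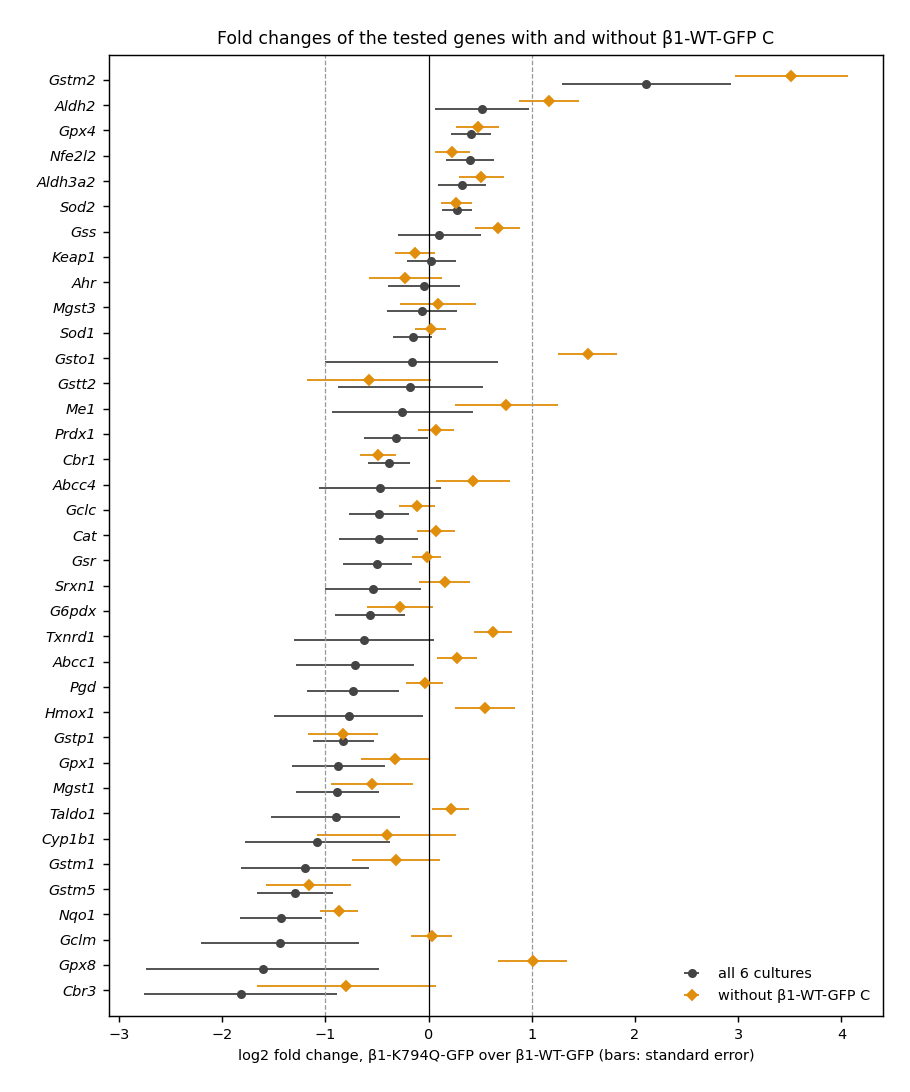
Log2 fold changes of β1-K794Q-GFP over β1-WT-GFP for 37 tested genes, ordered by the value with all 6 cultures (dark circles), with the value without β1-WT-GFP C beside it (orange diamonds), bars of 1 SE, and dashed lines at a 2-fold change. Most dark circles lie left of 0 and move toward or past 0 without β1-WT-GFP C. Without it 16 values are negative, Gstm5, Nqo1 and Gstp1 the lowest of them, and among them is Keap1, which is positive with all cultures. Ces2e, with no count in β1-WT-GFP cells, is left out.

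The count of genes called was 6 of 39 without β1-WT-GFP C, against 8.38% of all genes tested in that fit. Gpx8, Gstm2, Gsto1, Ces2e and Aldh2 were then higher in β1-K794Q-GFP cells (5.99% of all genes) and Gstm5 was lower (2.39%). No gene of the list reached an adjusted p of at most 0.05 in this fit, against 0.236% of all genes. Further genes were past both thresholds when another culture was left out: Gclm without β1-WT-GFP A, Gpx1 without β1-K794Q-GFP B, and Gstp1, Mgst1, Cyp1b1 and Cbr3 without β1-K794Q-GFP C, all lower in β1-K794Q-GFP cells. The fit without β1-WT-GFP C takes the spread of β1-WT-GFP from cultures A and B, which were nearly alike. Whether A and B are as independent of each other as the other cultures cannot be told from the labels. β1-WT-GFP C stood at least 2-fold above A and B in 6 of 12 tested genes with the ARE core. It did so in 11 of 19 with a promoter and no ARE core, and in 11.4% of all tested genes. Only the short promoter windows were searched, so that sites outside them are missed. Genes without a given promoter, among them Hmox1, Gclc, Gsr and Abcc1, are in neither count. A link between AREs and the excess of β1-WT-GFP C was therefore not tested.

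A further 129 genes of the same pathways, outside the list, were examined in the same fit over all genes. Of these 80 were tested, and 10 were past both thresholds, against 5.19% of all tested genes. The direction was higher in β1-K794Q-GFP cells in 3 of the 80, against 3.48% of all genes, and lower in 7, against 1.71%. The 3 that rose were Ephx1, Gstt3 and Aldh5a1, and the 7 that fell were Slc7a11, Prdx6, Gsta3, Gstm4, Ahrr, Abcc5 and Abcb1a. With at least 10 counts required in every culture, 4 of 68 were called, beside 425 of 10541 over all genes. Gsta3, Gstm4, Gstt3, Ahrr, Aldh5a1 and Abcb1a had under 10 counts in at least 1 culture and were not tested then. In edgeR's quasi-likelihood test Abcb1a alone had an adjusted p under 0.05. This was lost without any one of β1-K794Q-GFP A or C or the β1-WT-GFP cultures. It was also lost with the culture letter as a block and with the regional level in the fit. DESeq2 gave an adjusted p of at most 0.05 to 8 of the 80, against 4.11% of all tested genes. These were Slc7a11, Ephx1, Gsta3, Gstm4, Gstt3, Ahrr, Abcc5 and Abcb1a. β1-WT-GFP C was at least 2-fold above A and B in 24 of the 80 genes, against 11.4% of all tested genes, and the median log2 fold change was −0.23 with all cultures and 0.03 without β1-WT-GFP C.

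Wide decreases were seen in the Ahr branch and among the exporters. Abcb1a, the P-glycoprotein that pumps drugs out of endothelial cells, was at 0.481, 0.197 and 0.0860 CPM in β1-K794Q-GFP cultures and at 10.3, 10.8 and 15.5 in β1-WT-GFP cultures. All β1-WT-GFP cultures were far above all β1-K794Q-GFP cultures, with a log2 fold change of −5.54 ± 0.60 and an adjusted p of 0.0474 in edgeR's quasi-likelihood test. Over the alternatives its adjusted p ranged from 1.75e-13 with DESeq2 to 0.319 in edgeR's test without β1-WT-GFP B, and Abcb1a stayed past both thresholds of fold and unadjusted p in all 6 fits with a culture left out. Its paralog Abcb1b, which shares most of the 17.6% of 50-base stretches of Abcb1a that also occur in other transcripts, was at 32.3, 7.80 and 40.0 against 18.1, 20.2 and 20.7 and was not called. Ahrr, the repressor that Ahr induces, was at 0, 3.06 and 0.0860 against 29.8, 43.9 and 98.8, a log2 fold change of −5.79 ± 1.40 (adjusted p = 0.207, edgeR). The size of this fold rests on β1-K794Q-GFP B, without which Ahrr had 1 count against 2198 in the β1-WT-GFP cultures, a ratio of 1352 with a counting interval from 242 to 53420. Abcc5, an exporter of nucleotide analogs, fell from 538 ± 114 to 258 ± 73.0 normalized counts (SD, n = 3; adjusted p = 0.265, edgeR), with no overlap between the groups. Its call was lost without any one of β1-K794Q-GFP A or B or β1-WT-GFP B, and with the regional level in the fit. Abcg2, the breast cancer resistance protein, was at 104, 191 and 137 against 340, 381 and 124 and was not called with all cultures. In Abcg2 β1-WT-GFP C lay among the β1-K794Q-GFP cultures.

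Among the glutathione genes outside the list, the cystine transporter and a further peroxiredoxin were lower. Slc7a11, which imports the cystine used for glutathione, was at 147, 104 and 48.8 against 190, 245 and 740, a log2 fold change of −1.97 ± 0.65 (adjusted p = 0.357, edgeR), and the call was lost without β1-K794Q-GFP B, β1-K794Q-GFP C or β1-WT-GFP C. Prdx6, a peroxiredoxin that uses glutathione, was at 158, 175 and 169 against 226, 298 and 1605, a log2 fold change of −2.08 ± 0.78 (adjusted p = 0.421, edgeR). Without β1-WT-GFP C the log2 fold change of Prdx6 was −0.63, and its call was also lost without any one of the β1-K794Q-GFP cultures, and with the regional level in the fit, where its log2 fold change was −1.51. Gsta3, an alpha class transferase, was at 0.674, 0.987 and 0.516 against 3.59, 3.20 and 9.26, a log2 fold change of −2.87 ± 0.59 (adjusted p = 0.152, edgeR). Gstm4, of the same cluster as Gstm2, had no count in β1-K794Q-GFP cells and 1.66, 2.00 and 2.92 normalized counts in β1-WT-GFP cells, at least 7.42-fold lower (adjusted p = 0.0955, edgeR).

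The 3 increases outside the list were in an epoxide hydrolase, a transferase and an aldehyde dehydrogenase. Ephx1, the microsomal epoxide hydrolase, was at 196, 173 and 294 CPM in β1-K794Q-GFP cultures and at 55.6, 61.5 and 122 in β1-WT-GFP cultures. The groups did not overlap, the log2 fold change was 1.47 ± 0.38 (adjusted p = 0.239, edgeR), and the call was kept in all 6 fits with a culture left out. Gstt3, a theta class transferase on chromosome 10, had 22, 35 and 23 counts against 1, 1 and 0, a ratio of 44.5 with a counting interval from 11.9 to 374 (adjusted p = 0.0955, edgeR). Aldh5a1, succinate semialdehyde dehydrogenase, rose to 4.26 ± 1.73 from 0.993 ± 1.07 normalized counts (SD, n = 3; adjusted p = 0.463, edgeR), and the call was lost without any one of β1-K794Q-GFP A or C or β1-WT-GFP A or B.

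**Figure D4:**
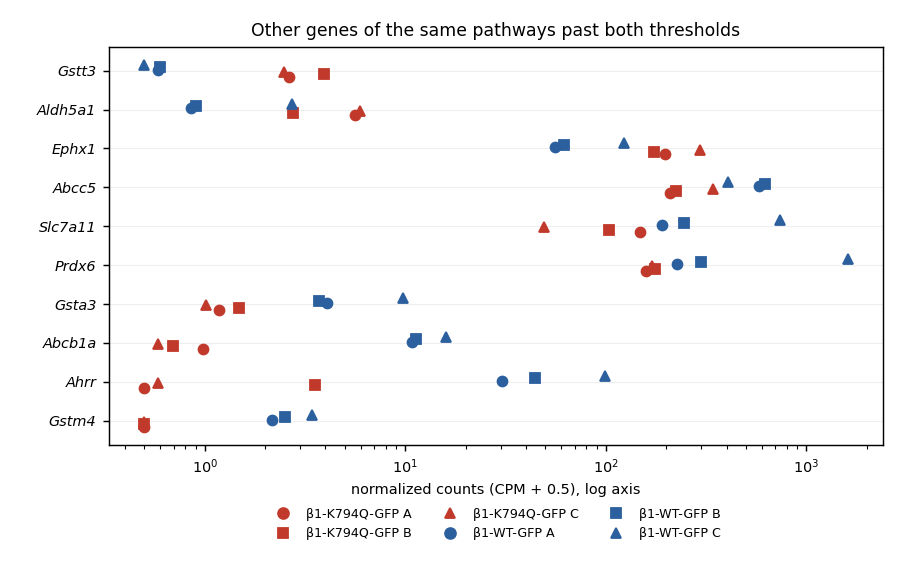
Normalized counts (CPM + 0.5, log axis) of the 10 further pathway genes past both thresholds, one row a gene, with β1-WT-GFP cultures in blue, β1-K794Q-GFP cultures in red, and circle, square and triangle for cultures A, B and C. The red points lie right of the blue points in Gstt3, Aldh5a1 and Ephx1 and left of them in the other 7 genes, most widely in Abcb1a and Ahrr.

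Of the further genes that were tested and not called, the pair with the highest mean CPM in each pathway group is given. The ferritin light chain Ftl1 was at 856, 1686 and 897 against 1305, 1204 and 1966, and the heavy chain Fth1 ranged from 437 to 860 against 389 to 641. Of the 50-base stretches of Ftl1 50.9% also occur in other transcripts, so that its value is less certain. Of the other regulators Nfe2l1 ranged from 558 to 650 against 512 to 580, and Sqstm1, the autophagy receptor that sequesters Keap1, from 582 to 1153 against 962 to 1378. The heavy chain Slc3a2, the partner of Slc7a11, was at 118, 133 and 141 against 131, 151 and 312, and Txn1, thioredoxin, was at 118, 79.1 and 125 against 108, 112 and 240. Cyb5r3 and Por, reductases that feed electrons to P450 enzymes and related systems, ranged from 226 to 675 and from 99 to 148 in β1-K794Q-GFP cultures and from 234 to 315 and from 110 to 176 in β1-WT-GFP cultures. The aldo-keto reductases Akr1a1 and Akr1b8 and the transferases Gstz1 and Gsto2 also overlapped between the groups. None of 16 further carboxylesterases was tested, and 13 of them had no count in any culture.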

How the data were processed

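Total RNA of 3 β1-WT-GFP and 3 β1-K794Q-GFP cultures was sequenced after Ribo-Zero Plus depletion. The authors deposited counts of reads per gene symbol, not normalized. The submitters' processing notes name bcl2fastq 2.20.0, STAR 2.7.4a, HTSeq 0.9.1, edgeR 3.38.4 and the build mm10, and the strand setting of the counting is not given in the sources used here. The totals, 9589826 to 15287191 counts, limit the precision of low genes, and floors and counting intervals cover counting error only. There were 0 further columns of per-sample values.

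The counts were fitted in R 4.3.3 with edgeR 4.0.16 (filterByExpr, TMM, common dispersion 0.186, quasi-likelihood F-test, two-sided) over all 11608 genes kept, with Benjamini-Hochberg adjustment over all of them. The calls follow the study's thresholds, a 2-fold change with a p of 0.05 or less before adjustment. The standard error is the size of the log2 fold change divided by the square root of F. A constant of 0.5 was added to CPM on log2 scales other than that of the fit. In simulated counts of the same design with 11462 genes, 92.4% of 197 genes changed 4-fold were found and 2.57% of unchanged genes were called.

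The 46 genes and all other lists were chosen with earlier results of these data known. Named were all 46 genes, those further pathway genes that were called and, of the rest, up to 2 per group with the highest mean CPM. GENCODE M21 (GRCm38) gave the gene positions, for 21777 symbols directly and for 1278 by a synonym. Promoters are RefSeq windows of GRCm38.p6. Stretches of 50 bases shared between GENCODE transcripts of different genes served as a measure of ambiguous reads.

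The alternatives were no filter, a filter of 10 counts in every culture, RLE normalization, DESeq2 1.42.0, edgeR's likelihood ratio test, the culture letter as a block, the level of 25 neighbouring genes in the offset, a longer ARE motif and leaving out each culture. Leaving out β1-WT-GFP C and β1-K794Q-GFP B together was added after the data were seen. Python 3.11.15 with scipy 1.17.1, numpy 2.4.6, matplotlib 3.10.9 and pandas 2.3.3 made the tables and figures.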

Additional observations from a re-analysis of the deposited data

How the results depend on the processing

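Over all genes 603 were called, and the count was 916 without a filter on low counts, between 501 and 992 with a culture left out, and 1661 without both β1-WT-GFP C and β1-K794Q-GFP B. Of the 38 listed genes tested 4 were called, and between 3 and 7 with a culture left out. Leaving out β1-K794Q-GFP C gave 7 of 38, beside 650 of 11782 over all genes. Leaving out β1-K794Q-GFP B gave 6 of 39, beside 942 of 11853, and leaving out β1-WT-GFP C gave 6 of 39, beside 992 of 11844. With β1-WT-GFP C and β1-K794Q-GFP B both left out 6 of 39 were called, all higher in β1-K794Q-GFP cells. Over all genes 1661 of 11721 were called in that fit, 1179 higher and 482 lower. Of 80 further pathway genes tested 10 were called, and between 7 and 11 with a culture left out. A filter of 10 counts in every culture tested 68 in place of 80 and called 4, beside 425 of 10541 genes. With β1-WT-GFP C and β1-K794Q-GFP B both left out 16 of 79 were called, 8 in each direction, beside the 1661 of 11721 over all genes. For the other changes the cause was not tested. With the longer ARE motif, which fixes 1 more base, the share of listed genes with an ARE core was 5.56% in place of 33.3%, against 3.45% of all genes. Between cultures of the same letter the correlations of deviations from the group means were low, at 0.109, 0.055 and 0.102 for A, B and C. The labels do not say whether cultures of the same letter were handled together, and low correlations cannot exclude it. With the letter as a replicate block 571 genes were called in all, 6 of the list and 8 of the further genes. No gene called with all cultures changed direction in another fit, and with all cultures kept 321 of 329 recomputations for single genes gave the same call. The 8 others were in 6 genes, Gstm5, Abcc5 and Prdx6 with the regional level in the offset, Cbr3 with DESeq2, and Slc7a11, Prdx6, Cyp1b1 and Cbr3 with the block. Fold changes of genes not called moved more, under the block from −1.61 to −0.33 in Gpx8 and from −0.16 to 0.62 in Gsto1. Depth limits Gpx3, Gstt1 and Cyp1a1, which had too few counts for a test. Ces2g, with 13, 0 and 62 counts in β1-K794Q-GFP cultures, did not pass the filter with all cultures. In the fit without β1-WT-GFP C it was tested and not called, at a log2 fold change of 7.58 ± 3.20 (SE).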
